A study of Mus musculus with 123 samples.

Results

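A named list of 45 genes whose proteins act in mitosis and cytokinesis was read, and all 45 were among the 23337 gene symbols of the count table. The list does not hold every mitosis gene of the table. It was split by role into chromosome condensation and chromatin (6 genes), centromere and kinetochore (6), spindle checkpoint (3), regulators of mitotic entry and exit (8), chromosomal passengers (2), spindle (14) and cytokinesis (6: Anln, Ect2, Racgap1, Kif23, Prc1 and Aurkb). They were read in single αMHC+ cells of hearts of the strain aMHC-GFP (no treatment is labelled), in which a promoter of cardiomyocytes (CMs) drives GFP, at embryonic days E9.5 and E12.5 and at postnatal day P1. The same reporter was carried at every age. The labels name no animal, litter or chip, so each age is 1 sample, cells are not replicates, and no test or p-value is given.

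In a dividing cell, condensins compact the chromosomes, kinetochores tie them to spindle microtubules, and the checkpoint holds the cell until every kinetochore is attached. The anaphase-promoting complex then destroys cyclin B, the spindle pulls the chromatids apart, and the centralspindlin complex, Ect2 and anillin place and close the contractile ring. CMs of the embryonic heart divide. Around birth many mouse CMs replicate DNA and separate nuclei without completing cytokinesis, which leaves binucleated cells.

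Cells with 2000 or more genes were kept, which left all 42 E9.5 and 29 E12.5 cells and 41 of 52 P1 cells. Total counts ranged from 268301 to 6351742, from 148258 to 7711355 and from 69522 to 327360, respectively. To remove this difference in depth, every cell was thinned to 100000 counts, and 3 P1 cells below that number were left out (38 cells). The median number of genes detected per thinned cell still differed, at 3740.5 for E9.5, 3601 for E12.5 and 2841 for P1. Shares of cells, genes found per cell and counts of 0 were not adjusted for this. CPM are counts per 1000000 of the summed thinned cells, with exact 95% Poisson intervals. A gene was found in a cell if it had 1 count or more, and shares of cells carry exact 95% binomial intervals. For a sum of 0 the upper limit taken was 3 counts over the group, or 0.714 CPM for E9.5, 1.03 CPM for E12.5 and 0.789 CPM for P1. A fold given with the words at least sets the 0 to this limit. The limit lies below the end of the exact interval, which is 0.971 CPM for 0 counts at P1, so exact intervals start at lower folds. Intervals and limits cover counting error only. They leave out the spread between cells, in which many counts of a gene can lie in 1 cell. A fold given with the words at least is thus no lower limit for the age. Values in series follow the order E9.5, E12.5, P1, and pairs the order E9.5, E12.5, unless stated otherwise. Cell titles fall into naming sets (C and N530 at E9.5, C and N523 at E12.5 besides 1 cell of another set, only C at P1), and these sets gave the only spread within an age. In 39 of 42, 29 of 29 and 41 of 41 kept cells, 4 or more of 8 CM markers were found. The other 3 cells, all E9.5 cells of set C, held 1 to 3 of these markers, which summed to 4.35, 81.8 and 222 CPM against a median of 59809 CPM at E9.5. Of the markers of other cell types, 50% or more of a list was found in 6 cells, among them 1 P1 cell with 5 of 6 endothelial markers.

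The 45 genes together were high at both embryonic ages and low at P1. Their summed level was 4382 CPM (4319 to 4446) in E9.5 cells. In E12.5 cells it was 4598 CPM (4521 to 4677), and in P1 cells 239.7 CPM (224 to 256). Without thinning the sums were 4548, 4273 and 228 CPM. The level at P1 was 18.3-fold lower than at E9.5 (counting interval 17.1 to 19.6) and 19.2-fold lower than at E12.5 (17.9 to 20.5). On the log2 scale P1 differed from E9.5 by -4.19, from set C by -3.53 and from set N530 by -4.43. From E12.5 it differed by -4.26, and by -4.36 and -4.17 for its naming sets. These ratios exceeded the spread between naming sets (SD 0.64 and 0.14). The ratio of E12.5 to E9.5 was 0.07 and ran from -0.27 to 0.83 over 4 pairs of naming sets (SD 0.53), so the embryonic ages did not differ beyond this spread.

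Gene by gene, the direction at P1 was nearly uniform. A gene was tested if its mean over the 3 ages was 1 CPM or more, which left out Hjurp and Nek2, and it was called if its CPM differed 2-fold or more. Compared with E9.5, all 43 genes tested were lower at P1, whereas 43.7% of the 11612 genes of the table that could be compared were. Compared with E12.5, 42 of 43 were lower against 35.7% of all genes, the exception being the condensin subunit Ncapd2. The median log2 ratio over the genes was -5.83 and -5.48, against -0.67 and -0.39 over all genes tested. Of the 43 genes, 23 had no count in any thinned P1 cell, against 13.0% of all genes tested. With Hjurp and Nek2, 25 of 45 (55.6%) had none, both with thinning and without. Over all 23337 symbols, those below the minimum included, 53.5% had no thinned P1 count, so this second share is near the background. The 23 tested genes without a P1 count passed the minimum only through the embryonic ages. The list was also chosen with earlier results of these data known, so the shares beside all genes are descriptions only.

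**Figure D1:**
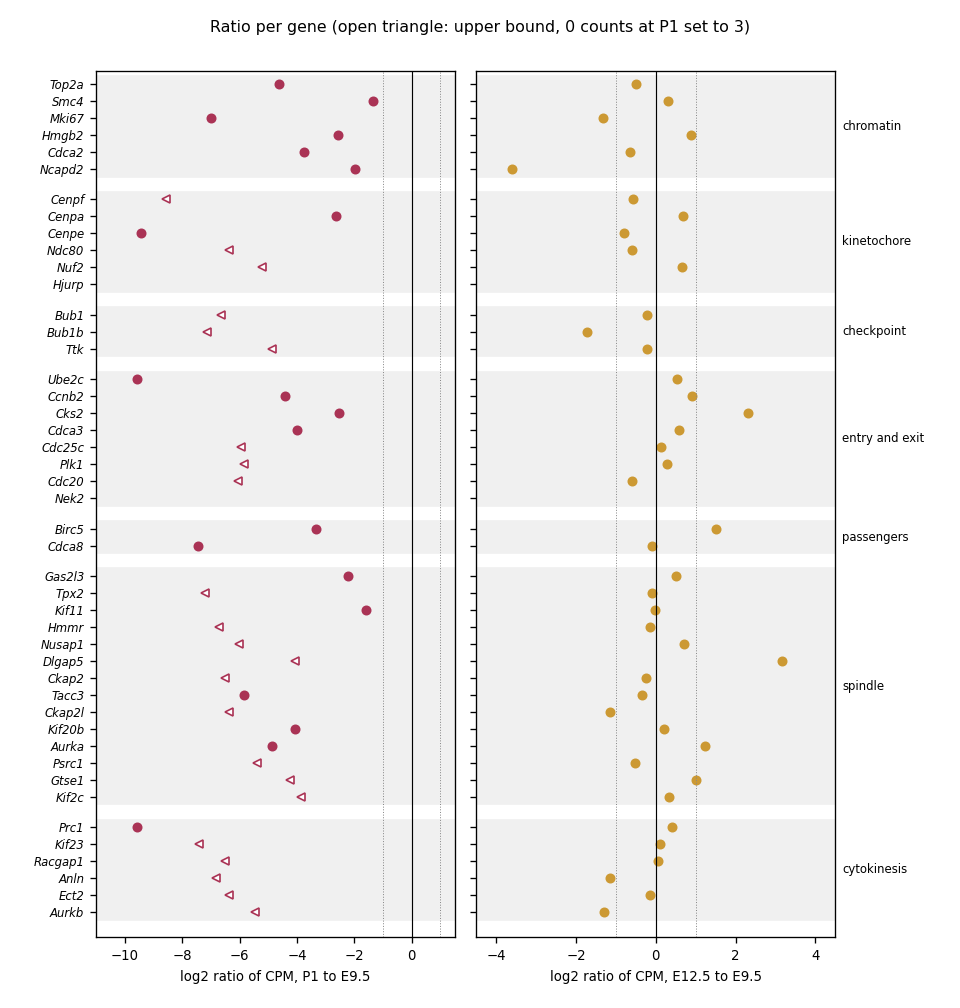
The log2 ratio of CPM of each gene is plotted for P1 to E9.5 (left) and E12.5 to E9.5 (right), with genes grouped by role and dotted lines at 2-fold. All 43 ratios of P1 to E9.5 lie left of the dotted line at -1, and open triangles are upper bounds for genes with 0 counts at P1, whereas the ratios of E12.5 to E9.5 lie on both sides of 0, from -3.60 to 3.18.

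Most of the genes were found in a minority of the cells. Over the 45 genes, the share of cells in which a gene was found had a median of 31.0% in E9.5 cells (2.38% to 73.8%), 31.0% in E12.5 cells (0% to 75.9%) and 0% in P1 cells (0% to 39.5%). At E9.5, 9 genes were found in 50% or more of the cells, at E12.5 10 genes, and at P1 none, where Smc4 alone exceeded 25%. Per length, which allows genes to be compared with each other, the E3 partner Ube2c led at E9.5 and E12.5, with means over cells of 439 and 616 TPM. At P1 Smc4 led with 29.7 TPM, followed by Cenpa with 23.1 TPM.

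**Figure D2:**
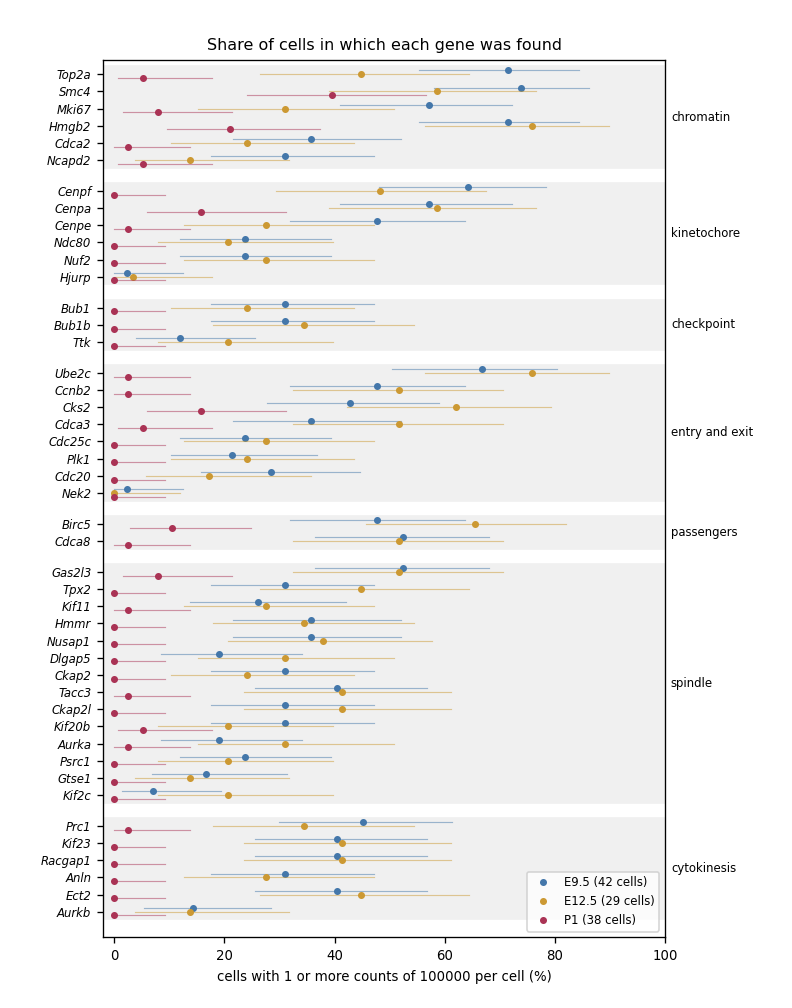
For each gene, points give the share of thinned cells with 1 or more counts for 42 E9.5, 29 E12.5 and 38 P1 cells, and lines give exact 95% binomial intervals. The P1 points sit at 0% for 25 genes and reach at most 39.5%, for Smc4.

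Cells of 1 age differed widely in how many of the 45 genes they held. At E9.5 the lowest, median and highest number found was 2, 13.5 and 43, at E12.5 it was 0, 10 and 42, and at P1 it was 0, 1 and 9. At least 10 genes were found in 32 of 42 cells at E9.5 (76.2%, 60.5% to 87.9%), in 15 of 29 at E12.5 (51.7%, 32.5% to 70.6%) and in 0 of 38 at P1, for which the exact interval ends at 9.25% and 3 cells of 38 would be 7.89%. In 12 of 38 P1 cells none was found. The medians of the naming sets were 11 (set C) and 15 (set N530) at E9.5 and 9 (set C) and 16 (set N523) at E12.5, so both ages overlapped. Summed levels per cell had medians of 2995 CPM (30 to 15640), 1520 CPM (0 to 20430) and 55 CPM (0 to 1150). The 3 cells with the highest levels held 23.0%, 42.7% and 33.4% of all counts of the 45 genes.

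**Figure D3:**
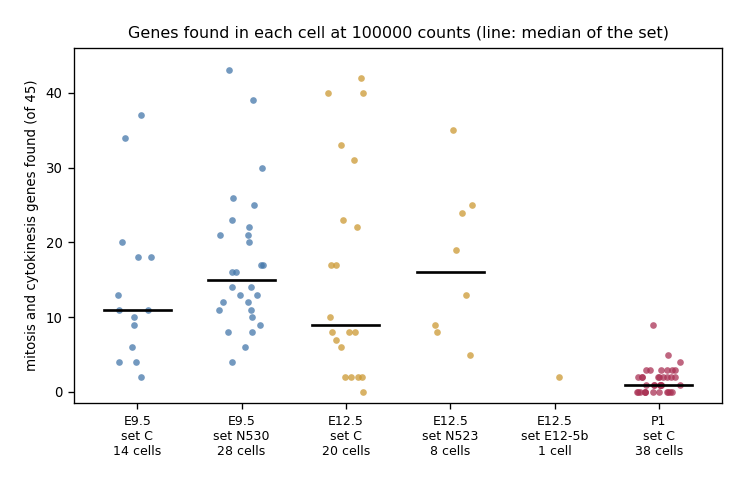
Each point is a cell thinned to 100000 counts, placed by age and naming set, with the number of the 45 genes found in it on the vertical axis and the median of the set as a line. The P1 cells end at 9 genes, while single cells of both embryonic ages reach 40 or more.

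From cell to cell within the embryonic ages, most genes were positively correlated with the rest of the list, in varying degree. The Spearman correlation of a gene's thinned count with the sum of the other 44 had a median of 0.38 over 45 genes in the 42 cells at E9.5 (range -0.20 to 0.63) and of 0.67 over 44 genes in the 29 cells at E12.5 (range -0.15 to 0.88). It was above 0 for 43 genes at each age and above 0.5 for 9 genes at E9.5 and 37 at E12.5. At E9.5 it was highest for the proliferation marker Mki67 (0.63) and for topoisomerase Top2a (0.62), and at E12.5 for the kinetochore gene Cenpf (0.88) and the passenger gene Cdca8 (0.84). The cells share their depth by construction, and the number of genes found also rose with the number of all genes detected (Spearman 0.27 and 0.33). Naming sets were pooled and other genes were not read in this way, so these values are descriptions.

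With naming sets pooled and cells thinned, few of the genes changed between E9.5 and E12.5, in both directions. At E12.5, 6 of 43 genes were 2-fold or more lower, against 31.4% of all genes tested, and 5 were 2-fold or more higher, against 20.7%. The higher genes were Dlgap5, Cks2, Birc5, Aurka and Gtse1, and the lower ones Ncapd2, Bub1b, Mki67, Aurkb, Ckap2l and Anln. Across 4 pairs of naming sets, 9 of 43 genes were higher at E12.5 in every pair (20.9%, against 11.7% of all genes tested) and 4 were lower in every pair (9.30%, against 22.3%). Dlgap5, Cks2, Birc5 and Aurka were among the first and Ncapd2 and Ckap2l among the second. With set C alone 16 genes were higher (36.4%, against 23.8% of all genes) and 1 lower (2.27%, against 29.0%). With sets N530 and N523 in its place 10 were higher (23.3%, against 23.1%) and 20 lower (46.5%, against 41.3%), so the number of calls depended on the naming set.

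The sum of the chromatin genes fell least of the 7 roles from either embryonic age to P1. Their sum was 1258, 958 and 131 CPM (119.5 to 143 for the last), which is 9.62-fold and 7.32-fold lower at P1. The ratio to E9.5 was smaller for set C (log2 -1.91) than for set N530 (-3.65). Each of the 6 genes had counts at P1. Smc4, the ATPase core of condensin, was at 179.8, 222 and 70.5 CPM and was found in 31 of 42, 17 of 29 and 15 of 38 cells. Before thinning, its level per cell had a lowest, median and highest value of 0, 40.1 and 1640.5 CPM in E9.5 cells, 0, 29.9 and 1204 CPM in E12.5 cells and 0, 0 and 559 CPM in P1 cells. The 559 CPM was in the P1 cell with endothelial markers, and the next highest P1 cell was at 463 CPM. The ranges overlapped, and with naming sets pooled Smc4 had the smallest fall of all 43 genes from E9.5 to P1, 2.55-fold. Against set C alone it fell 1.53-fold, and the ratios of Kif11 (1.16-fold) and Ncapd2 (1.22-fold) were smaller.

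Top2a, which untangles sister DNA, was at 515 and 364 CPM. At P1 it was at 20.8 CPM and was found in 2 of 38 cells. Hmgb2, a chromatin protein that bends DNA, was at 93.8, 172 and 15.8 CPM and had the highest ratio of the class from E9.5 to E12.5 (log2 0.88). Mki67, which coats mitotic chromosomes, was at 304, 122 and 2.37 CPM, and its fall to P1 (log2 -7.01) was the largest of the class. The fall of Mki67 from E9.5 to E12.5 (log2 -1.31) turned to a rise of 1.1 with set C alone, in which it went from 75.7 to 162.5 CPM. Cdca2, a phosphatase anchor on chromatin, was at 114, 72.8 and 8.42 CPM, and all its P1 counts came from 1 cell. Against set N523 (5 CPM) in place of all E12.5 cells, its ratio of P1 to E12.5 turned to a log2 value of 0.75. Ncapd2 was at 50.2 CPM at E9.5 and at 4.14 CPM at E12.5, from 12 thinned counts in 4 cells. It was higher at P1 (12.9 CPM) than at E12.5, but 98.0% of its thinned P1 counts were in 1 cell.

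The kinetochore genes fell from 697 and 595 CPM to 20.3 CPM at P1, a 34.4-fold and 29.4-fold difference. Almost all that remained was Cenpa, the histone H3 variant that marks centromeres outside mitosis as well. Cenpa was at 124, 201 and 20.0 CPM and was found in 6 of 38 P1 cells. Cenpf, a large protein of the outer kinetochore, was at 296 and 198 CPM and had no count at P1, which is at least 375-fold and 251-fold lower. Cenpe, a motor that moves chromosomes to the spindle equator, was at 182 and 105 CPM and had 1 count at P1, a 692-fold difference to E9.5 with a counting interval from 124 to 27374. Ndc80 and Nuf2, which bind each other and the microtubule, had no count at P1, at least 82.3-fold and 36.8-fold below E9.5. Hjurp, the chaperone of Cenpa, had 2 and 5 thinned counts, each in 1 cell, at E9.5 and E12.5 and none at P1.

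The 3 checkpoint genes of the list, Bub1, Bub1b and Ttk, were not found at P1, whereas other checkpoint genes were (Bub3 and Mad2l1, with 275 and 104 thinned counts). Their sum was 214 CPM at E9.5 (899 counts) and 122 CPM at E12.5 (355 counts), and 1 or more of them was found in 21 of 42 and 12 of 29 cells. At P1 there was no count in 38 thinned cells nor in the 41 cells before thinning, so their sum was at least 271-fold lower than at E9.5 and 155-fold lower than at E12.5. The kinase Bub1 was at 80.0 and 69 CPM, the kinase Ttk at 23.1 and 19.7 CPM. Bub1b, which encodes the inhibitor BubR1, was at 111 and 33.8 CPM, a log2 ratio of -1.72 from E9.5 to E12.5. Its level was 41.4 and 145.7 CPM in the E9.5 sets C and N530 and 27 and 55 CPM in the E12.5 sets C and N523. It was thus lower at E12.5 in 3 of 4 pairs of sets and higher in 1.

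The regulators of mitotic entry and exit had the smallest spread between naming sets when P1 was set against E9.5. They summed to 564, 899 and 14.7 CPM. On the log2 scale that fall from E9.5 came to -5.26, with -5.27 and -5.25 for the naming sets, and the ratio of E12.5 to E9.5 was 0.67, positive in every pair of sets (0.39 to 0.84). Ube2c, which loads ubiquitin for the anaphase-promoting complex, was at 199 and 288 CPM and had 1 thinned count at P1. That count gives a 756-fold difference to E9.5 (135 to 29911) and a 1094-fold difference to E12.5 (196 to 43267). Ccnb2, a cyclin B, was at 134, 253 and 6.32 CPM, its 24 thinned P1 counts in 1 cell. Cks2, a small subunit of cyclin-dependent kinases, was at 26.0, 128 and 4.47 CPM. It was higher at E12.5 than at E9.5 in every pair of sets, with 41.4 and 18.2 CPM in sets C and N530 and 160.5 and 63.8 CPM in sets C and N523.

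Of the other regulators, Cdca3, which promotes mitotic entry, was at 58.6, 88.3 and 3.68 CPM. The kinase Plk1 was at 45 and 54.5 CPM, the phosphatase Cdc25c at 48.6 and 52.8 CPM and Cdc20, the activator of the anaphase-promoting complex, at 52.6 and 34.8 CPM. None of these last 3 had a count at P1. The kinase Nek2 had 2 thinned counts in 1 cell at E9.5 and none at the later ages.

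The chromosomal passengers Birc5 and Cdca8 form a complex with the kinase Aurkb, which is counted here with cytokinesis. Their sum was 251, 454 and 11.8 CPM. Birc5 encodes survivin and was at 113, 324 and 11.1 CPM, a log2 ratio of 1.52 from E9.5 to E12.5. Its level was 69.3 and 134.6 CPM in the E9.5 sets C and N530 and 287.5 and 452.5 CPM in the E12.5 sets C and N523, which did not overlap. Cdca8, which encodes borealin, was at 138 and 130.0 CPM and had 3 thinned counts at P1, a 175-fold difference to E9.5 (59.7 to 852).

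The spindle genes summed to 805 CPM (778 to 832) in E9.5 cells, 973 CPM (938 to 1010) in E12.5 cells and 61.8 CPM (54.2 to 70.3) in P1 cells. This was 13.0-fold and 15.7-fold lower at P1. Gas2l3, which links microtubules and actin, was at 149, 209.7 and 32.1 CPM. Tpx2, which activates Aurka on the spindle, was at 117 and 109 CPM and had no count at P1, at least 148-fold below E9.5. Kif11, the motor that pushes the spindle poles apart, was at 77.4, 75.9 and 25.8 CPM, but its 98 thinned P1 counts were in 1 cell. Its log2 ratio of P1 was -0.22 against set C of E9.5, short of 2-fold, and 0.37 against set N523 of E12.5. Gas2l3 and Kif11 together held 220 of the 235 spindle counts at P1 (93.6%), in 4 cells. The other spindle counts were 15, from Kif20b, Tacc3 and Aurka, in 4 further cells.

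Among the spindle genes Dlgap5, which stabilises kinetochore fibres, had the highest ratio of E12.5 to E9.5. It rose from 13.1 to 118 CPM (log2 3.18), with 70.3% of its E12.5 counts in 1 cell, and without the cell with the most counts of the 45 genes before thinning at each age the ratio was 1.52. Aurka, the kinase of the spindle poles, was at 23.3 and 54.8 CPM and at 0.789 CPM at P1, from 3 counts. The log2 ratio of Gtse1 was 1.00, from 15 to 30.0 CPM, with 72.4% of the E12.5 counts in 1 cell. Without cells in which 50% or more of the markers of another cell type were found, it was -0.92, so no direction holds for Gtse1. Ckap2l had the lowest ratio, from 64.8 to 29.3 CPM (log2 -1.14). Tacc3, a microtubule-binding protein, was at 59.8, 46.9 and 1.05 CPM, and the motor Kif20b at 35.7, 41.4 and 2.11 CPM. Nusap1, Kif2c, Dlgap5, Hmmr, Psrc1, Ckap2, Ckap2l, Gtse1 and Tpx2 had no count at P1.

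The 6 cytokinesis genes were present at both embryonic ages and all but absent from the P1 counts. Their sum was 594 CPM (571 to 618) in E9.5 cells and 597 CPM (569 to 626) in E12.5 cells. In P1 cells it was 0.263 CPM and rested on 1 thinned count of Prc1. The difference from E9.5 to P1 was 2257-fold with a counting interval from 405 to 89197. Before thinning, the 41 P1 cells held 3 counts of these genes among 6819717 in all, again of Prc1 and in 1 cell, while a count of 0 in these cells allows up to 0.44 CPM. The naming sets did not overlap with P1, at 355 and 714 CPM at E9.5 and 576 and 724 CPM at E12.5.

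Prc1, which bundles antiparallel microtubules at the spindle midzone, was at 198 and 264 CPM. It was found in 19 of 42 and 10 of 29 cells, and its level per cell before thinning reached 3400, 2237 and 12.1 CPM. Kif23, the motor subunit of centralspindlin, was at 135 and 145 CPM and was found in 17 of 42 and 12 of 29 cells. Racgap1, its partner with a GTPase-activating domain, was at 71.9 and 74.1 CPM and was found in 17 and 12 cells. Kif23 and Racgap1 had no count at P1, at least 171-fold and 91.1-fold below E9.5.

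Ect2, the exchange factor that activates RhoA at the cleavage site, was at 65.0 and 58.6 CPM in 17 of 42 and 13 of 29 cells, at least 82.3-fold and 74.3-fold above P1. Anln encodes anillin, a scaffold of the contractile ring, and was at 89.0 and 40.3 CPM in 13 and 8 cells, at least 113-fold and 51.1-fold above P1. Aurkb, the passenger kinase, was at 35 and 14.1 CPM in 6 and 4 cells, at least 44.3-fold and 17.9-fold above P1 by counts. Of its E9.5 counts, 68.7% were in 1 cell. It was found in 14.3% and 13.8% of the embryonic cells, while the exact interval for 0 of 38 P1 cells ends at 9.25%. Anln and Aurkb were called lower at E12.5 (log2 -1.14 and -1.31), and with set C alone both were higher (0.55 and 0.40). Without the cell with the highest thinned level of the 45 genes at each age Aurkb was also higher (0.38), so no direction holds for Aurkb.

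Beside the spindle genes, the cytokinesis genes made up 42.5% of the E9.5 counts of both classes, 38% for E12.5 and 0.424% for P1 (1 count beside 235 spindle counts). The log2 ratio of cytokinesis to spindle counts was -0.44, -0.71 and -7.88, the last with a counting interval of -13.19 to -5.38. Without Gas2l3 and Kif20b, which are also placed at the midzone or midbody in late mitosis, the ratios were -0.063, -0.27 and -6.71. The naming sets gave -0.77 (set C) and -0.34 (set N530) at E9.5 and -0.66 (set C) and -0.78 (set N523) at E12.5. The embryonic ages thus overlapped, and P1 lay below each set, on 1 cytokinesis count. Of the 235 spindle counts at P1, 98 were those of Kif11 in 1 cell. Without that cell the P1 ratio was -7.10, and without it and without Gas2l3 and Kif20b it was -2.81 (1 count of Prc1 beside 7 spindle counts), so the size of the P1 ratio rested on few cells. In TPM, where length is taken into account, the ratios were -0.36, -0.64 and -7.11.

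Cell by cell, counts of both classes occurred together in 36 of 42 cells at E9.5 and 19 of 29 at E12.5 and in 0 of 38 at P1. Spindle counts without cytokinesis counts were seen in 3, 3 and 8 cells, cytokinesis without spindle counts in 1, 3 and 1, and neither class in 2, 4 and 29. All 6 cytokinesis genes were found in 3 cells at each embryonic age. The Spearman correlation of the summed counts of both classes over the cells, which share their depth, was 0.58 and 0.76. It differed between naming sets at E9.5 (0.64 in C and 0.41 in N530) and at E12.5 (0.69 in C and 0.92 in N523). The single P1 cell with Prc1 held none of the other 44 genes.

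**Figure D4:**
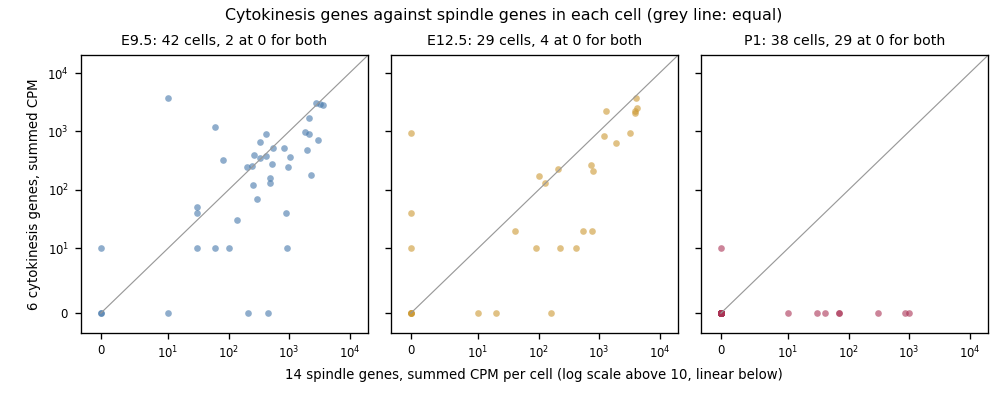
Each point is a thinned cell, with the summed CPM of the 14 spindle genes on the horizontal axis and of the 6 cytokinesis genes on the vertical axis, both on a log scale above 10 CPM and linear below. At E9.5 and E12.5 most cells lie near or below the grey line of equality, while at P1 the 8 cells with spindle counts lie at 0 for cytokinesis and 1 cell lies at 10 CPM of cytokinesis and 0 for the spindle.

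Promoters are shown for 3 of the cytokinesis genes, which were found at both embryonic ages and in at most 1 P1 cell. RefSeq start regions (build GRCm38.p6, 250 bases before to 50 after a start) were given for 39 of the 45 genes and not for Aurkb, Tpx2, Cdc25c, Cdca2, Smc4 and Dlgap5. For 35 of these 39, the start lay within 50 bases of a GENCODE transcript start. Searched on both strands were TTTGAA, known as the cell cycle homology region, and CCAAT. In the 3 regions printed the motifs do not overlap. Printed are the 100 bases before the start of the 3 cytokinesis genes with both motifs and the highest mean CPM, 5′ to 3′ on the gene's strand, with motif letters in capitals (ATTGG is CCAAT on the other strand). They are Prc1 (chr7:80294351-80294450, plus strand), Kif23 (chr9:61946800-61946899, minus strand) and Racgap1 (chr15:99651657-99651756, minus strand):
Prc1: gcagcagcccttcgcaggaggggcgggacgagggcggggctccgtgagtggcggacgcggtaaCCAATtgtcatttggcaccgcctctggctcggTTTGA
Kif23: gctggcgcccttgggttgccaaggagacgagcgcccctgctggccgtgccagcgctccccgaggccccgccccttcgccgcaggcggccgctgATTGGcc
Racgap1: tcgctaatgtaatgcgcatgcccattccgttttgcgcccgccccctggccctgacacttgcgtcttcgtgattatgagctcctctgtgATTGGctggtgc
In Prc1 the last letter of TTTGAA is the start base itself and is not shown. A second start region of Prc1, with its start at chr7:80294476, is not printed. In Kif23 and Racgap1 TTTGAA begins at bases 3 and 6, with the start base counted as base 1.

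TTTGAA was present in the start regions of 28 of 39 genes (71.8%), against 20.2% of the 27025 genes with such a region. CCAAT was present in 31 of 39 (79.5%), against 41.1%, and both were present in 24 of 39 (61.5%), against 7.97%. By role, both occurred in 4 of 5 cytokinesis genes, 5 of 12 spindle genes, 4 of 4 chromatin genes and 3 of 6 kinetochore genes. Of 55 other mitosis genes with a start region 23 held both (41.8%), and of 30 genes of the contractile ring and abscission that cells also use outside mitosis 0 did. A match is a description of these letters only.

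At P1, before thinning, 20 of the 45 genes had a count in the 41 kept cells, 1554 counts in all. In 29 cells at least 1 gene was found, in 10 cells 1 gene, in 7 cells 2, in 7 cells 3 and in 5 cells 4 or more. The chromatin genes held 56.1% of the counts, in 26 cells (63.4%, 46.9% to 77.9%). The spindle genes held 25.7% in 9 cells, the kinetochore genes 9.40% in 6 cells, and the entry and exit genes 5.15% in 9 cells. The passengers held 3.41% in 4 cells, cytokinesis 0.193% in 1 cell, and the 3 checkpoint genes none.

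Smc4 alone had 556 of the 1554 counts (35.8%), in 19 cells with 1 to 115 counts each, and it was the only gene of the list in 5 cells. The cell with 115 counts was the one in which 5 of 6 endothelial and 6 of 8 CM markers were found, and its CM markers summed to 301 CPM against a median of 77392 CPM over the P1 cells. After thinning, this cell held 65 of the 268 Smc4 counts at P1. Hmgb2 was found in 11 cells, in 10 of them with 1 to 4 counts and in 1 with 71. Cks2 was found in 7 cells with 1 to 15 counts and Cenpa in 6 cells with 4 to 48 counts. Gas2l3 (198 counts) and Birc5 (50 counts) were found in 4 cells each, and Mki67 in 3 cells with 12 counts.

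The other genes with a count at P1 were found in 1 or 2 cells. Kif11 had 165 counts, Cdca2 44, Tacc3 24, Aurka, Cdca8 and Prc1 3 each, Ube2c 2 and Cenpe 1, each gene in 1 cell. Top2a had 105 counts, Ncapd2 66, Ccnb2 32, Cdca3 15 and Kif20b 10, each in 2 cells. The 111 counts of Gas2l3 in 1 cell had no other gene of the list beside them.

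The P1 cell with the most genes of the list held 9. It had 31 counts of Ccnb2, 24 of Top2a, 17 of Cenpa, 5 of Cks2, 3 of Cdca3, 2 each of Ube2c, Mki67 and Birc5 and 1 of Kif20b, among 124633 in all. In this cell 7 of 8 CM markers were found and 1 of 5 smooth muscle markers (345 CPM, with none in 32 of the 41 P1 cells) and none of the endothelial, fibroblast, epicardial, erythroid and macrophage markers. No checkpoint or cytokinesis gene of the list was found in it. Without this cell, 27 of the 45 genes had no thinned count at P1. The next cells held 5 genes. In one these were Smc4 (73 counts), Cenpa (33), Tacc3 (24), Hmgb2 (1) and Cks2 (1), and in the other Birc5 (18), Cdca3 (12), Cdca8 (3), Hmgb2 (2) and Smc4 (2), with 8 of 8 CM markers in both.

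**Figure D5:**
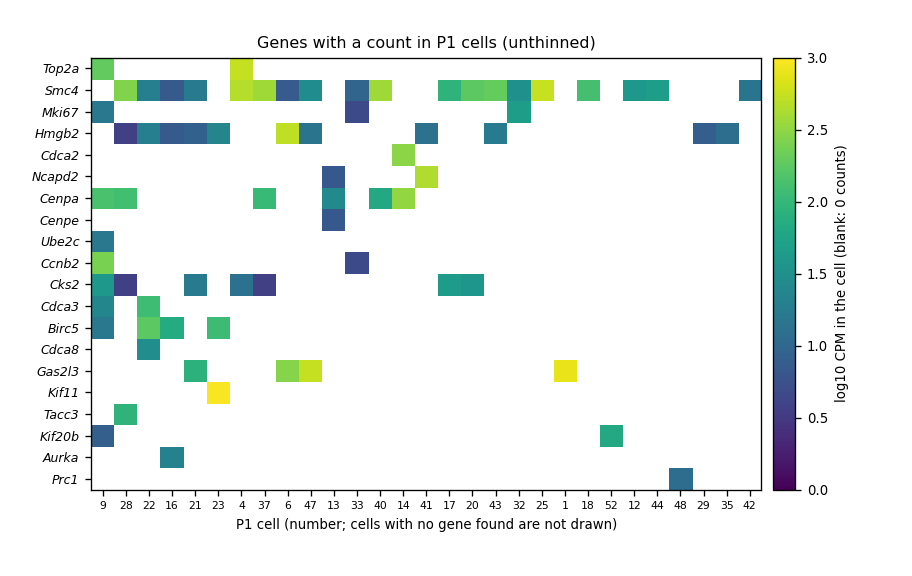
Colours give the level (log10 CPM, before thinning) of the 20 genes with a count in the 29 kept P1 cells that hold any, with cells ordered by the number of genes found. Smc4 fills 19 columns, Hmgb2 11 and Cks2 7, the leftmost cell holds 9 genes, and the only cytokinesis gene is Prc1 in 1 cell.

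Other genes of the pathway were read for comparison, from a list of 78 further mitosis genes and a list of 37 genes of the contractile ring and abscission. Both lists were likewise chosen with earlier results of these data known. Of the further mitosis genes, 68 of 76 tested were 2-fold or more lower at P1 than at E9.5 (89.5%), none was higher, and the median log2 ratio was -4.41. Over all genes tested 43.7% were lower and 20.5% higher. Against E12.5, 68 of 75 were lower and 1 was higher, with 35.7% and 21.6% over all genes. Among the lowest ratios to E9.5, whose order is not fixed at 0 or 1 counts, were those of Ccnb1, the main mitotic cyclin, Plk4, the kinase of centriole duplication, and Spag5, a spindle protein. Ccnb1 fell from 365 and 186 CPM to 1 count, a 1388-fold difference to E9.5 (249 to 54855). Plk4 fell from 82.9 CPM to 1 count, a 315-fold difference (56.1 to 12472), and Spag5 from 145.7 CPM to 0, at least 185-fold. The most counts at P1 were those of the kinetochore gene Zwint with 309, 215 and 79.2 CPM, the checkpoint gene Bub3 with 176, 125.5 and 72.4 CPM, and Tubg1, a γ-tubulin, with 120.5, 60 and 70.3 CPM.

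Of 36 contractile ring and abscission genes tested, 9 were 2-fold or more lower at P1 than at E9.5 (25.0%, against 43.7% of all genes) and 4 were higher (11.1%, against 20.5%), and each was found at P1. The median log2 ratio was -0.24, against -0.67 over all genes. Their sum, in which abundant genes weigh most, went from 16893 to 7662 CPM between E9.5 and P1, a log2 ratio of -1.14 that was -1.85 for set C and -0.59 for set N530. Non-muscle myosin Myh9 had the lowest ratio, with 328, 130.0 and 29.2 CPM (log2 -3.49), followed by the actin crosslinker Flna with 279, 67.9 and 31.8 CPM (-3.13) and β-actin (Actb) with 8989, 5311 and 1613 CPM (-2.48). Actb also had the most counts at P1, ahead of the myosin light chains Myl9 with 1123, 1405 and 996 CPM and Myl12a with 661, 650.3 and 638 CPM. Genes written as dates in the table, 14 of them as dates in September, were not assigned to septins.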

How the data were processed

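Cells were captured with the Fluidigm C1 system and their cDNA was made with SMART-Seq V4. Reads were aligned with OLego, and featureCounts gave the raw read counts per gene symbol that the authors deposited for 123 cells, on build GRCm38 per the labels. The deposited TPM were computed by the authors and are linear. There are no molecular identifiers, so counts are reads and not molecules. The methods describe removing cells with few reads, and also cells under 2000 expressed genes. The deposited 42, 29 and 52 cells equal in number those the study clustered by age. Of the deposited cells, 11 of 52 at P1 and none at the earlier ages fell below that number at 1 count or more, so the stated filter, counted in this way, leaves 112 of 123 cells, fewer than the study states after its own filter.

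Each cell took its age from its label. A minimum of 2000 genes was set per cell, and kept cells were thinned without replacement to 100000 counts (numpy 2.4.6, seed 1). Counts were summed over cells and divided by the total. A gene was tested at a mean of 1 CPM or more over the ages and called at 2-fold. Naming sets of 6 or more cells gave the spread. No test was run. The scripts were tested on simulated counts. The genes and lists were chosen with earlier results of these data known. Named are all 6 cytokinesis genes, in each other role the 2 with the highest mean CPM and those with the highest and lowest ratio of E12.5 to E9.5, every gene with a count at P1 or called higher at E12.5, and from each pathway list the 3 with the most P1 counts and the 3 with the lowest ratio of P1 to E9.5. Others named beside them were chosen after their values were seen. TPM served for levels between genes. Alternatives were other depths, seeds, gene minimums, naming sets, cells, folds, TPM and TMM factors (edgeR 4.0.16). All 37 and 78 pathway genes were matched, 3 and 10 of them by another symbol.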

Additional observations from a re-analysis of the deposited data

Results flagged for a closer look

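The 11 P1 cells below 2000 genes, which enter no comparison, held counts of the mitosis genes above the limit that a count of 0 allows in them (4.20 CPM). Their level was 151 CPM, from 108 of 714929 counts, against 228 CPM in the kept P1 cells before thinning. These counts came from 6 genes in 6 cells, 69 of Ncapd2, 22 of Smc4, 7 each of Hmgb2 and Nuf2, 2 of Cenpa and 1 of Gas2l3. Nuf2 had no count in the kept P1 cells. No cytokinesis or checkpoint gene of the list was found.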

How the results depend on the processing

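Over 29 settings, 5 of them chosen after seeing the data (without the 6 cells with 50% or more of another cell type's markers, the P1 cell with 9 genes, the cell with the highest thinned level at each age, or the P1 cell with Kif11, the last also without Kif20b and Gas2l3), 250 of 284 values of 14 results stayed within the spread between naming sets (ratios and medians), 1.5 times the count (counts) or the interval at P1. The number of genes lower at P1 ran from 40 to 43 against E9.5 and from 36 to 43 against E12.5, and 25 to 28 had no count at P1. Set against E9.5, the summed log2 ratio at P1 was -3.53 with set C alone and -5.83 as a median over genes. That of P1 to E12.5 was -4.77 without titles ending in no (a mark of unknown meaning), -4.08 without the 6 cells, -3.98 with TMM factors, -4.87 in TPM, -5.47 as a median over genes and -4.10 without Top2a, Cenpf and Ube2c. TMM factors moved every ratio by 0.40 (P1 to E9.5), 0.28 (P1 to E12.5) and 0.11 (E12.5 to E9.5). The ratio of E12.5 to E9.5 was 0.83 with set C alone. The log2 ratio of cytokinesis to spindle at E9.5 was -0.77 with set C alone and -0.063 without Kif20b and Gas2l3. At E12.5 it was -0.87 from 3000 genes per cell, -0.83 without the cell with the most counts before thinning at each age, -0.57 without the 6 cells and -0.27 without Kif20b and Gas2l3. At P1 it was -2.66 from 3000 genes per cell, an upper bound since no cytokinesis count was left, and -2.81 without the P1 cell with Kif11 and without Kif20b and Gas2l3. The median number of genes found was 20 (E9.5) and 17 (E12.5) without thinning, and for E12.5 16 with sets N530 and N523 and 15 without titles ending in no. Genes lower at E12.5 (6 as reported) numbered 18 without thinning, 1 with set C alone, 20 with sets N530 and N523, 3 without titles ending in no, 12 without the 6 cells and 1 at 4-fold. Genes higher at E12.5 (5 as reported) numbered 9 without thinning, 3 with seeds 2 and 5, 16 with set C alone, 10 with sets N530 and N523, 3 without the 6 cells and 2 at 4-fold. The log2 ratio of E12.5 to E9.5 reversed with set C alone for Mki67 (1.1), Anln (0.55), Aurkb (0.40) and Spag5 (2.03), without the 6 cells for Gtse1 (-0.92), and without the cell with the highest thinned level at each age for Aurkb (0.38). That of P1 to E12.5 reversed with sets N530 and N523 for Cdca2 (0.75) and Kif11 (0.37). The cause was not tested. No paired analysis was possible because each age is 1 sample and no result comes from a test.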
